A study of Mus musculus with 6 samples.

Results

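The surface markers that sort blood stem cells and multipotent progenitors from mouse bone marrow were followed at the transcript level in 6 RNA sequencing libraries. Members were taken by gene symbol from the deposited table: Kit, Ly6a, Cd34, Slamf1, Cd48, Procr, Esam, Cd27 and Cd9, which are 9 of its 53465 genes. Each symbol had 1 row, and all 9 passed the filter on low counts. Wild-type mice were given 5.0 Gy of total body irradiation and then saline or carnosine, the dipeptide of beta-alanine and histidine. No group was left unirradiated, so radiation is shared by the saline controls. The sorted cells carry the label LT-HSC, for long-term stem cells of the blood, and the gate took lineage-, Sca-1+, c-Kit+ cells that were Flk2- and CD34-. There were 3 saline and 3 carnosine libraries, with 12602067 to 16866534 counts each. The sources used here give no strain, sex or age of the mice, and no dose or timing of carnosine. They also do not say whether replicate libraries stand for different mice, so the p-values reflect variation among these 6 libraries alone, and that variation may be technical.

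As background, no single surface protein marks a blood stem cell, and sorters combine several. Stem and progenitor cells of the marrow carry Sca-1 (gene Ly6a), a small lipid-anchored protein, and c-Kit (Kit), the receptor tyrosine kinase for stem cell factor. CD34, a sialomucin, is absent from most adult mouse long-term stem cells and present on the progenitors they give rise to. In the SLAM scheme, named after the signalling lymphocytic activation molecule family, stem cells carry CD150 (Slamf1) and lack CD48. EPCR (Procr), ESAM and CD9 are used as further positive markers of stem cells, while CD27, a receptor of the tumour necrosis factor family, is carried by stem cells and many progenitors and lymphocytes.

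Carnosine libraries had lower Slamf1, Esam and Cd9 and higher Kit and Cd27. In all 5 of the 9 members passed the test (edgeR, quasi-likelihood F-test, p under 0.05 after adjustment over all tested genes), where 39.4% of the 15533 tested genes did. Of these, 3 members were lower, against 19.8% of all tested genes, and 2 were higher, against 19.6%. The falls were 1.90-fold for Slamf1, 1.83-fold for Esam and 1.52-fold for Cd9, while Kit rose 1.15-fold and Cd27 1.16-fold. Genes that passed and were lower by at least 1.5-fold made up 6.79% of those tested. Libraries of the groups did not overlap for 7 of the 9 members, against 52.3% of all tested genes. The median log2 fold change of the 9 was -0.13, and that of all tested genes was -5.03e-05.

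**Figure D1:**
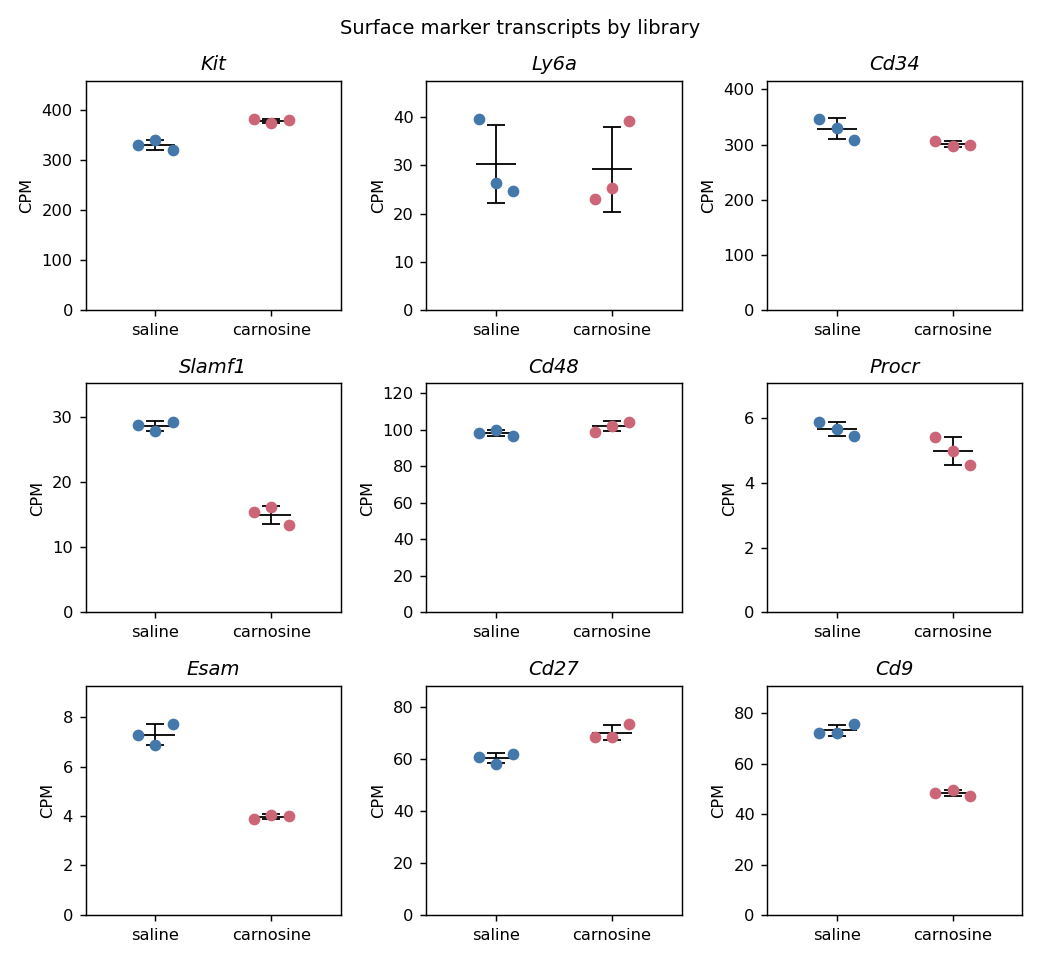
Level of each member in counts CPM (CPM, scaled by TMM) in every library, with 1 panel per gene, each vertical axis starting at 0, points for the 3 saline (blue) and 3 carnosine (red) libraries, and bars for mean ± SD. The carnosine libraries lie below all saline libraries for Slamf1, Esam and Cd9 and above them for Kit and Cd27, while Ly6a has 1 high library in each group.

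The regions upstream of the genes are shown for the SLAM pair, which lie in 1 gene cluster and of which Slamf1 fell, and for Cd9, which fell too. The windows are chr1:171766882-171767181 for Slamf1 and chr1:171681742-171682041 for Cd48, both on the plus strand, and chr6:125494711-125495010 for Cd9, on the minus strand. Each sequence runs 5′ to 3′ on the gene's strand from 250 bases before to 50 bases after the RefSeq start (GRCm38.p6), and 7 of the 9 members had an entry in that table. Capitals mark matches on either strand to 4 motifs. For factors of the GATA family the letters searched were AGATAA. Those of the ETS family were searched as CNGGAAG, and the RUNX family as TGTGGT. For Sp1 they were GGGCGG, and matches of different motifs did not overlap in these windows.
Slamf1: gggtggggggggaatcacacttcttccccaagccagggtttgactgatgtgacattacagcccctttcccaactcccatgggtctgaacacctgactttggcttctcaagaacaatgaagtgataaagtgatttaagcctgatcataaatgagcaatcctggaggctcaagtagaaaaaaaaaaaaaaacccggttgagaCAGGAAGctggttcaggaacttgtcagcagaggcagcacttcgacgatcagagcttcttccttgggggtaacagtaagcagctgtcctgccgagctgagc
Cd48: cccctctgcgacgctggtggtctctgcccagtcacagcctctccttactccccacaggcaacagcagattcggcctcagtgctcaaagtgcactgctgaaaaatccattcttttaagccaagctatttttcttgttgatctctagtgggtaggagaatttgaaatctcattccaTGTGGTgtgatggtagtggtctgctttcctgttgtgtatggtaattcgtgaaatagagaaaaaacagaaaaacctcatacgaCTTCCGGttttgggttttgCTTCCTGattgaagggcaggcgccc
Cd9: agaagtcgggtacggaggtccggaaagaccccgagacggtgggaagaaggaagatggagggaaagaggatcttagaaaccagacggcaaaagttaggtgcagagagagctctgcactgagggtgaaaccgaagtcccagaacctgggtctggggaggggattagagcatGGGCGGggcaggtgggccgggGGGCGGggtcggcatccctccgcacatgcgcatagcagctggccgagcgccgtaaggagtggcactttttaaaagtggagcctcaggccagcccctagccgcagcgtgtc
The Slamf1 window held 1 ETS match, the Cd48 window 2 ETS matches and 1 RUNX match, and the Cd9 window 2 Sp1 matches. Among the 32851 promoter windows of the table, 31.9% held the ETS letters, 16.8% the RUNX letters, 35.7% the Sp1 letters and 11.2% the GATA letters, so single matches are common. None of these 3 windows held AGATAA, the only letters searched for the GATA family, so other forms of its site were not looked for.

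Kit and Ly6a encode the proteins that the gate required. Kit (ENSMUSG00000005672, GRCm38 chromosome 5, 75574916 to 75656722, plus strand, 8 annotated transcripts) was at 330.4, 339 and 319 CPM in saline libraries 1 to 3. It stood at 382, 374 and 379 CPM in the carnosine libraries. Every carnosine library was above every saline library, by a margin small beside the level itself. The log2 fold change was 0.20 ± 0.0284 (SE), with an adjusted p of 0.0015. The direction and the call held in all 14 alternative settings (log2 fold change 0.17 to 0.25).

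Kit signals through adaptors, kinases and phosphatases. Of 19 tested genes of the Kit ligand and signalling list 2 were higher (Ptpn6 and Stat5a) and 4 lower (Fyn, Sos1, Stat5b and Dok2). Among all tested genes 19.6% were higher and 19.8% lower, so calls in both directions are common. The median log2 fold change of the list was -0.043. The kinase gene Fyn fell from 80.6 ± 5.33 to 51.9 ± 2.78 CPM (SD, n = 3 each). Dok2, an adaptor that damps receptor kinase signalling, fell from 33.5 ± 1.74 to 17.8 ± 2.6 CPM. Sos1, which activates Ras, fell from 92.7 ± 1.74 to 73.3 ± 2.53 CPM, and the phosphatase gene Ptpn6 rose from 186 ± 1.82 to 203 ± 5.31 CPM. Kitl, which encodes the ligand, had 1 count in the saline and 7 counts in the carnosine libraries together and was not tested.

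Mast cells also carry c-Kit, and so do early granulocyte and monocyte progenitors. Of 10 tested mast cell and basophil markers, 6 were lower with carnosine and 1, Hdc, was higher. Their summed level, in CPM of each library's total without TMM scaling, was 607 to 626 with saline and 397 to 409 with carnosine. Gata2 alone made up much of that sum, with group means of 357 and 197 CPM. Of 10 granulocyte and monocyte progenitor markers, 8 were higher and 2 lower (Csf1r and Ly86), and their sum was 3968 to 4006 against 8272 to 8512. No marker of either list was at 0 in all libraries, and their part in the rise of Kit was not tested. In libraries made from many cells, fewer cells of a type and less RNA per cell cannot be told apart.

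Ly6a (ENSMUSG00000075602, chromosome 15, 74994877 to 74998031, minus strand, 6 transcripts) differed more between libraries of a group than between the groups. The saline libraries had 39.6, 26.4 and 24.8 CPM and the carnosine libraries 22.9, 25.4 and 39.2 CPM. Saline replicate 1 and carnosine replicate 3 stood high and near each other, and the other 4 libraries stood low. The coefficient of variation was 26.9% and 30.1% in the saline and carnosine groups, where counting error alone gives 4.69% and 5.04%. Among genes within 1.5-fold of its level, 96.5% and 97.1% varied less. Its log2 fold change was -0.058, with a 95% interval from -0.64 to 0.52, and an adjusted p of 0.88. The sign turned without saline replicate 1 (0.19) and without carnosine replicate 1 (0.088) or 2 (0.032).

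Ly6a lies in a cluster of related genes, some of which are close in sequence. The first 78 bases of the coding sequence (GENCODE M21) are shown for Ly6a, Ly6c1 and Ly6c2, with capitals at bases that differ from Ly6a.
Ly6a: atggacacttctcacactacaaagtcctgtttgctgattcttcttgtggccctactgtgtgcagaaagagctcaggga
Ly6c1: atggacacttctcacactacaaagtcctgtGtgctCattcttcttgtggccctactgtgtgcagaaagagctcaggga
Ly6c2: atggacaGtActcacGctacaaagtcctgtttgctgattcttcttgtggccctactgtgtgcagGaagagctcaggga
Over this stretch Ly6c1 differed from Ly6a at 2 bases and Ly6c2 at 4. Ly6i, not shown, differed at 6 bases, and Ly6e, also not shown, differed at 42. Of the 1297 different windows of 50 bases in annotated Ly6a transcripts, 19.0% occurred in transcripts of other genes, Ly6c1 and Ly6i among them. For the other 8 members that share was 0% to 5.67%. No source used here states how reads that fit several genes were counted, so the level of Ly6a is uncertain.

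The related genes varied between libraries as well, in different orders. Ly6c1 was at 13, 16.8 and 17.1 CPM with saline and 21.6, 21.9 and 11.1 CPM with carnosine, and was lowest within each group in the library where Ly6a was highest. Ly6e had 526, 494 and 691 CPM in the saline and 599.5, 604 and 455 CPM in the carnosine libraries, and within the carnosine group was lowest where Ly6a was highest. Ly6c2, a marker of monocytes, had 86.6, 71.9 and 88 CPM in the saline and 117, 114 and 166 CPM in the carnosine libraries, and within the carnosine group was highest where Ly6a was highest. Neither Ly6c1 nor Ly6e passed the test (log2 fold change 0.23 ± 0.25 and -0.045 ± 0.15, SE). Of 5 tested relatives in the Ly6 list, 2 were higher, Ly6c2 (82.1 ± 8.92 to 132 ± 29.2 CPM) and Ly6d (2.97 ± 0.367 to 4.18 ± 0.268 CPM; SD, n = 3 each), and 0 were lower. The profile most like Ly6a was that of Selenoh, with 42.8, 28.5 and 26.7 CPM in saline and 28, 29.6 and 47.5 CPM in carnosine libraries. After centring each gene on its mean, the root mean square difference over the 6 libraries was 0.077 log2 units, the smallest among 11411 genes of at least 5 CPM.

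Cd34, whose protein the gate excluded, was among the most abundant members. Cd34 (ENSMUSG00000016494, chromosome 1, 194938819 to 194961279, plus strand, 5 transcripts) was at 346, 331 and 308 CPM with saline and 306, 298 and 299 CPM with carnosine. All carnosine libraries lay below all saline libraries, by a gap smaller than the spread of the saline group. The log2 fold change of -0.13 ± 0.0424 (SE) did not pass, with an adjusted p of 0.0502, and it passed in 4 of 14 alternatives (adjusted p 0.0086 to 0.31). One of these was the fit without saline replicate 3, with an adjusted p of 0.0086. The non-coding gene Gm16897 overlaps Cd34 on the opposite strand and was at 2.76 ± 0.308 and 3.77 ± 0.403 CPM (SD, n = 3 each). Whether counting used strand is not stated, so reads of the pair cannot be told apart. The other excluded marker, Flt3, which encodes Flk2, fell from 210.3 ± 8.64 to 179.9 ± 2.51 CPM (adjusted p = 0.0023).

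Of the SLAM pair, Slamf1 fell and Cd48 did not pass the test. Slamf1 (ENSMUSG00000015316, chromosome 1, 171767127 to 171801184, plus strand, 2 transcripts), which encodes CD150, was at 28.7, 27.8 and 29.2 CPM in the saline libraries. It had 15.4, 16.1 and 13.4 CPM with carnosine. The highest carnosine library was far below the lowest saline library. Its log2 fold change of -0.93 ± 0.0805 (SE; adjusted p = 1.4e-04) ran from -0.99 to -0.67 over the 14 alternatives and passed in each.

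Cd48 (ENSMUSG00000015355, chromosome 1, 171682009 to 171705258, plus strand, 2 transcripts) encodes the partner marker, which stem cells lack. It stood at 98.4, 99.8 and 96.3 CPM with saline and 98.9, 102 and 104 CPM with carnosine. The groups overlapped, and the log2 fold change of 0.053 had a 95% interval from -0.031 to 0.14 (adjusted p = 0.29). Of the 14 alternatives it passed only on the FPKM scale (log2 fold change 0.11, adjusted p = 0.031). For each count of Slamf1 there were 3.43, 3.59 and 3.29 counts of Cd48 in the saline libraries and 6.43, 6.33 and 7.76 in the carnosine libraries. That ratio was 1.99 times higher in the carnosine group, with no overlap between the libraries.

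Both genes sit in 1 cluster of SLAM receptors, in which neighbours moved in opposite directions. Cd48 starts 85.1 kb before Slamf1. Slamf7, a receptor of plasma cells and other immune cells and the nearest tested gene before Cd48, rose from 9.94 ± 1.55 to 33.9 ± 0.692 CPM (SD, n = 3 each), or by 1.76 ± 0.11 (SE) on the log2 scale. Cd84, which starts 72.6 kb after Slamf1 and encodes a receptor of platelets and lymphocytes, fell from 52.4 ± 2.27 to 43 ± 4.14 CPM. Slamf6, a receptor of lymphocytes, rose from 2.6 ± 0.705 to 4.48 ± 0.612 CPM. Chosen after their values were seen, Cd244a and Ly9 of the same cluster were at 28.2 and 33.7 CPM with saline and 30.2 and 36.5 CPM with carnosine. Neither passed the test, and their annotated spans overlap. Slamf8, a family member of myeloid cells outside this cluster, rose from 2.99 ± 0.262 to 7.35 ± 0.873 CPM. In all, 3 of 8 tested genes of the family list were higher and 1 was lower, against 19.6% and 19.8% of all tested genes.

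**Figure D2:**
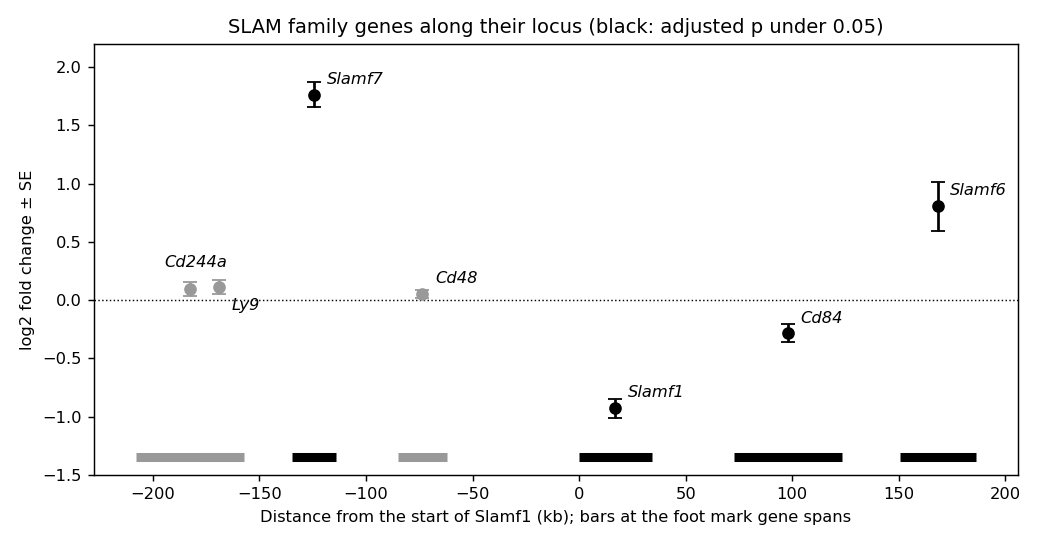
Log2 fold change ± SE, carnosine against saline, of 7 SLAM family genes at the distance of each gene's middle in kb from the start of Slamf1, black where the adjusted p was under 0.05 and grey otherwise, with bars at the foot for the gene spans. Slamf1 (-0.93) and Cd84 (-0.29) lie below 0, Slamf7 (1.76) and Slamf6 (0.81) above it, and Cd48, Ly9 and Cd244a close to it.

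Megakaryocytes and their progenitors carry CD150 too, and CD9. All 9 tested megakaryocyte markers were lower with carnosine, with a median log2 fold change of -1.36. Their summed level was 405 to 427 CPM with saline and 177 to 186 with carnosine. Most of it was Itga2b (208 and 101 CPM) and Vwf (107 and 30.5 CPM). Itga2b is also in the list of other stem and progenitor surface markers. Pf4, a platelet chemokine gene, went from 24.2 ± 0.847 to 5.59 ± 0.77 CPM (SD, n = 3 each), and Gp6, which encodes a collagen receptor of platelets, was at 0 in every library. Among 10 tested stem cell markers 7 were lower and 0 higher, with a median of -0.75. Mecom, a transcription factor of stem cells, went from 20.9 ± 2.55 to 10.4 ± 1.1 CPM. The summed stem cell level was 212 to 228 CPM with saline and 154 to 166 with carnosine. What part either cell type had in the values of Slamf1 and Cd9 was not tested.

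Cd9 (ENSMUSG00000030342, chromosome 6, 125460266 to 125494791, minus strand, 3 transcripts) encodes a tetraspanin, a membrane protein that groups integrins and other partners. The saline libraries had 72.1, 72.1 and 75.7 CPM and the carnosine libraries 48.5, 49.4 and 47 CPM. The values were tight within each group and far apart between them. The log2 fold change was -0.60 ± 0.0452 (SE; adjusted p = 7e-05), and between -0.62 and -0.52 over the alternatives, all of which passed. The antisense genes Gm28809 and Gm26728 overlap Cd9, and the former, at 1.02 and 0.52 CPM, was far less abundant. Other tetraspanins did not follow in 1 direction. Of 16 tested genes of that list 4 were higher and 3 lower, where 19.6% and 19.8% of all tested genes were. Their median log2 fold change was 0.085. The lysosomal tetraspanin gene Cd63 rose from 51.2 ± 1.33 to 72.5 ± 0.934 CPM and Cd37, of lymphocytes, from 77 ± 4.04 to 91.7 ± 4.72 CPM. Tspan13 fell from 95.6 ± 5.2 to 71.1 ± 0.924 CPM, while Tspan33 rose from 43.8 ± 0.946 to 50.6 ± 0.622 CPM (SD, n = 3 each).

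Esam and Procr encode adhesion and coagulation receptors that stem cells share with the endothelium. Esam (ENSMUSG00000001946, chromosome 9, 37528078 to 37538319, plus strand, 6 transcripts), which holds cells together at junctions, was at 7.27, 6.88 and 7.72 CPM with saline and 3.88, 4.04 and 4.02 CPM with carnosine. The libraries rested on 95 to 120 counts in the saline and 52 to 56 in the carnosine group, and the groups stood clearly apart. Its coefficient of variation was 5.74% with saline and 2.1% with carnosine, where counting error alone gives 9.67% and 13.6%. The libraries thus lay closer together than counting error, and the SE given next may be too small. A log2 fold change of -0.87 ± 0.104 (SE; adjusted p = 6.3e-04) ran from -0.91 to -0.50 over the alternatives and passed in each. Junction partners of the same kind were lower as well: F11r was at 7.17 and 3.49 CPM and Jam2 at 1.46 and 0.511 CPM. These were chosen after their values were seen.

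Procr (ENSMUSG00000027611, chromosome 2, 155751117 to 155755471, plus strand, 4 transcripts) was at 5.88, 5.65 and 5.44 CPM with saline and 5.39, 4.97 and 4.56 CPM with carnosine. The groups just failed to overlap. With 59 to 97 counts per library, counting error alone gives a coefficient of variation of 10.9% to 12.2%. The observed values were smaller, 3.86% with saline and 8.4% with carnosine, so the interval given next may be too narrow. The log2 fold change of -0.19 had a 95% interval from -0.45 to 0.077 (adjusted p = 0.27), so a fall of the size seen for Cd9 lies outside that interval. Partners of EPCR in the protein C pathway passed the test. F2r, which encodes the thrombin receptor PAR1 through which EPCR signals, went down from 342 ± 5.32 to 108 ± 4.15 CPM (SD, n = 3 each), which is -1.66 ± 0.0341 (SE) on the log2 scale. Thbd, thrombomodulin, which lets thrombin activate protein C, fell from 30.5 ± 1.26 to 7.41 ± 0.723 CPM. F2rl2, a related receptor, fell from 13.1 ± 1.65 to 4.58 ± 0.516 CPM, and Proc, the protein C gene, was at 0 in every library.

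Most tested endothelial markers were lower with carnosine, like Esam. So were all tested megakaryocyte markers and most tested stem cell markers. Of 11 tested endothelial markers, 8 were lower, 1 (Flt1) was higher, and Egfl7 and Emcn did not pass the test. The median log2 fold change of these endothelial markers was -2.02. Their summed level ran from 203 to 213 CPM with saline and from 156 to 171 with carnosine, and no marker was at 0 in all libraries. Cdh5, the cadherin of endothelial junctions, went from 7.16 ± 2.23 to 1.06 ± 0.3 CPM, and the vascular growth factor receptor Kdr from 7.79 ± 0.858 to 1.47 ± 0.421 CPM (SD, n = 3 each). Pecam1, also expressed by blood cells, made up much of the sum, at 98.6 and 88.2 CPM. The part of endothelial cells in the values of Esam was not tested.

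Cd27 (ENSMUSG00000030336, chromosome 6, 125232622 to 125237010, minus strand, 6 transcripts) was at 60.8, 58.2 and 62 CPM with saline and 68.7, 68.6 and 73.5 CPM with carnosine. Each carnosine library exceeded each saline library. The log2 fold change was 0.22 ± 0.0493 (SE), with an adjusted p of 0.011, and 0.19 to 0.26 over the alternatives, which all passed. Vamp1 overlaps the gene on the opposite strand and Mir8113 on the same strand. Cd70, the ligand of CD27, was at 0 in every library, and the adaptor genes Traf2 and Traf5 did not pass the test (adjusted p = 0.095 and 0.60).

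T cells, NK cells and some cells of the B lineage also carry CD27. Among 10 tested T and NK cell markers, 5 were higher (Cd3e, Cd4, Cd8a, Trac and Nkg7) and 3 lower (Trbc1, Klrb1c and Ncr1). Their summed level was 104 to 109 CPM with saline and 142 to 156 with carnosine, of which Nkg7, a granule gene, took 81.5 and 114 CPM. Of 9 plasma cell markers, 7 were higher and 0 lower, with summed levels of 2920 to 3123 and 6171 to 6369 CPM. Most of this was Igha (1504 and 3293 CPM) and Igkc (1125.6 and 2001.5 CPM). Sdc1 and Jchain did not pass the test (adjusted p = 0.41 and 0.11). Of 11 B cell markers, 2 were higher (Vpreb3 and Rag1) and 1 lower (Ms4a1), against 19.6% and 19.8% of all tested genes. The B cell sum was 38.1 to 40.8 and 42 to 46.6 CPM. Whether such cells contributed to Cd27 was not tested.

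Among the 19 tested adhesion and receptor partners of the members, 4 were higher and 9 lower, with a median log2 fold change of -0.16. Of 28 other surface markers of stem and progenitor cells, 16 were lower and 9 higher, with a median of -0.25. The platelet integrin genes Itga2b (208 ± 9.1 to 101 ± 4.28 CPM, SD, n = 3 each) and Itgb3 (51 ± 0.808 to 27 ± 0.338 CPM) were lower, as was Tek, the angiopoietin receptor of stem cells and endothelium. Higher were Fcgr3 (31.6 ± 0.929 to 71.4 ± 1.75 CPM) and Csf3r (79.6 ± 3.26 to 150 ± 4.08 CPM), receptors of myeloid progenitors. Tek was named after its values were seen.

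**Figure D3:**
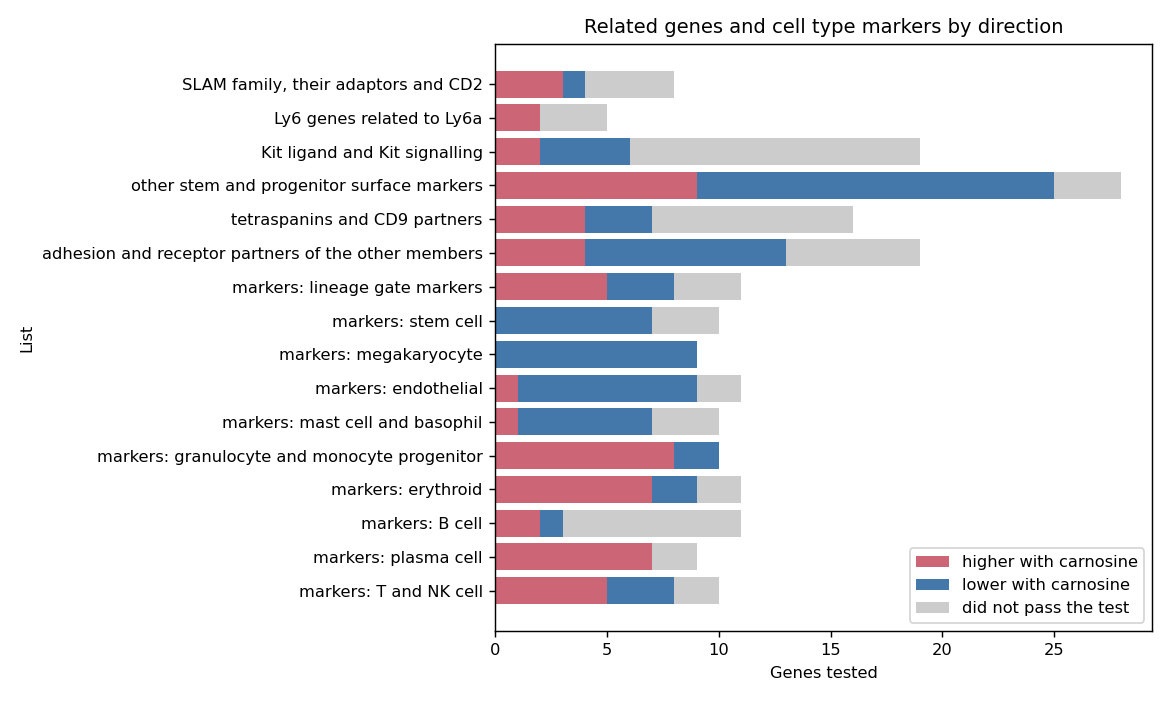
Number of tested genes in each list of related genes and of cell type markers that were higher (red), lower (blue) or did not pass the test (grey) with carnosine. All 9 tested megakaryocyte markers were lower, and 8 of 10 granulocyte and monocyte progenitor markers were higher. Among all 15533 tested genes, 19.6% were higher and 19.8% lower.

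Levels of different genes were compared per length, as CPM per kb of merged exons. The saline means were 82.6 ± 1.51 for Cd48, 45.1 ± 2.6 for Cd34, 37 ± 1.15 for Kit, 35.8 ± 1.03 for Cd9, 25.9 ± 0.839 for Cd27 and 25.1 ± 6.75 for Ly6a (SD, n = 3). Far below followed Slamf1 at 4.64 ± 0.119, Procr at 2.79 ± 0.108 and Esam at 2.54 ± 0.146. Kit and Cd9, Cd27 and Ly6a, and Procr and Esam were neighbours in this order whose libraries overlapped. Cd48 thus stood 1st and Slamf1 7th of the 9, while the SLAM scheme takes stem cells as positive for the latter and negative for the former.

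With carnosine, Cd9 stood 6th, at 23.6 ± 0.597 CPM per kb, with libraries that overlapped those of Ly6a, and Cd27 also overlapped Ly6a. Per longest transcript Cd9 went from 4th to 5th place. Slamf1, at 2.44 ± 0.227, came level with Procr at 2.45 ± 0.206. Kit, at 42.4 ± 0.461, changed places with Cd34, at 41.3 ± 0.645. Their ranges overlapped, but within each carnosine library Kit was above Cd34 (42.81 against 42.03, 41.92 against 40.82 and 42.56 against 41.03). For each count of Cd34 there were 0.955 to 1.03 counts of Kit with saline and 1.25 to 1.27 with carnosine. Per longest annotated transcript in place of merged exons, Cd34 stood 1st and Cd48 2nd in both groups. Of the gate itself, the 2 required transcripts therefore stood below the excluded Cd34 on these length scales, except for Kit with carnosine per kb of merged exons. The label LT-HSC names the sort gate here. These are transcripts, while the sort read proteins.

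**Figure D4:**
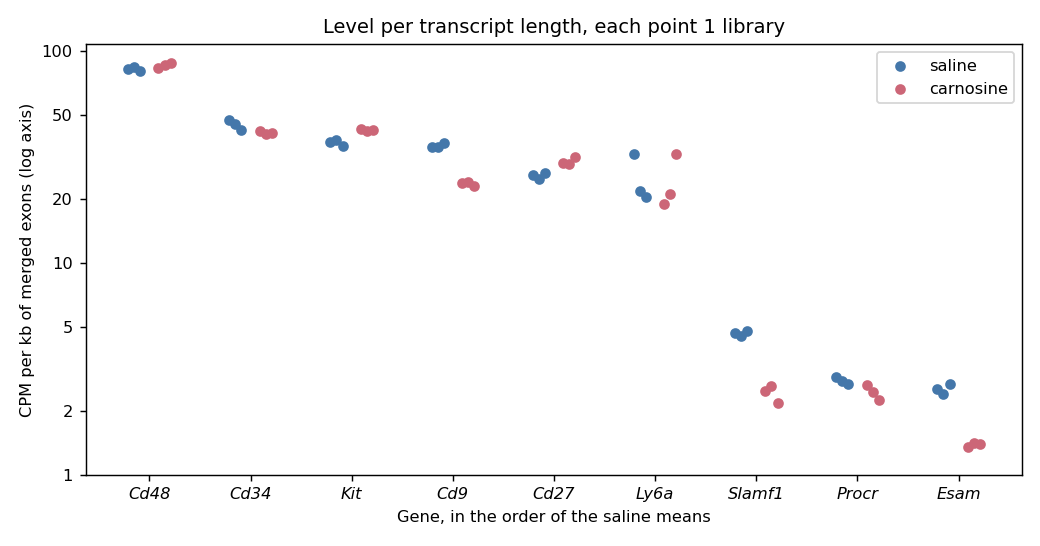
CPM per kb of merged exons on a log axis for the 9 members, in the order of their saline means, with 1 point for each of 3 saline (blue) and 3 carnosine (red) libraries. Slamf1, Procr and Esam form the low end, and the libraries spread most for Ly6a.

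Markers used in lineage gates were detected too. Of 11 tested, 5 were higher with carnosine, among them Cd3e, Cd4 and Cd8a of T cells, and 3 were lower. Their sum was 362 to 420 CPM with saline and 426 to 495 with carnosine, most of it Ptprc (271 and 260.1 CPM). White blood cells in general express Ptprc, and lineage gates use only 1 of its protein forms, so this sum is no measure of cells that the gate excluded. Erythroid markers were at 626 to 634 and 840 to 863 CPM, with 7 of 11 higher and 2 lower.

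**Figure D5:**
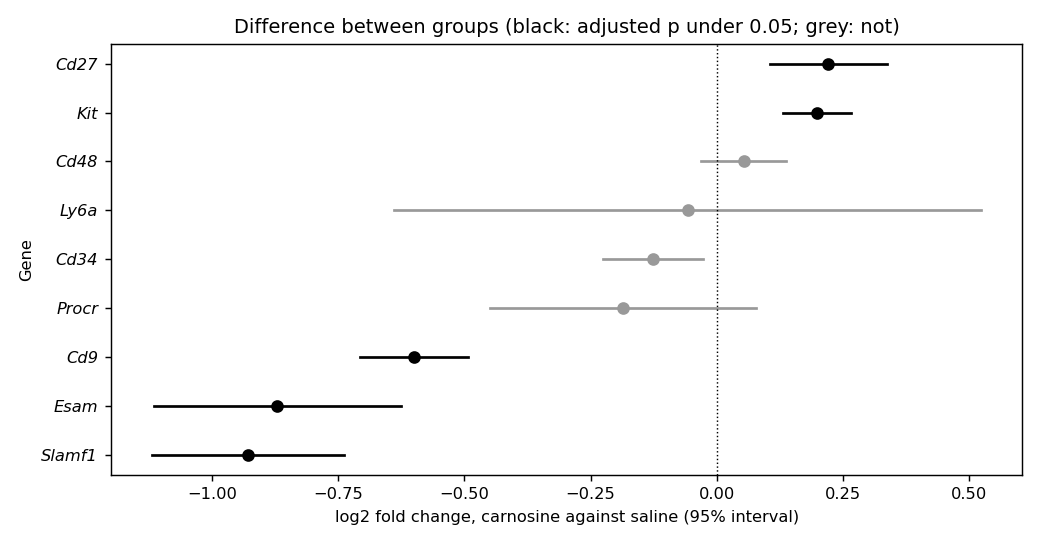
Log2 fold change of each member, carnosine against saline, with its unadjusted 95% interval, black where the adjusted p was under 0.05 and grey otherwise. Slamf1, Esam and Cd9 lie at -0.93 to -0.60, Kit and Cd27 near 0.2, and the interval of Ly6a is the widest; that of Cd34 ends just below 0 although its adjusted p was 0.0502.

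Profiles close to those of the changed members were found by the same measure as for Ly6a, over the 6 libraries. Nearest to Slamf1 were Zrsr1 (0.049 log2 units) and Nrgn (0.059), and nearest to Esam were the receptor gene Csf1r (0.024) and Sde2 (0.027). Cd9 was followed most closely by Cdkn2aip (0.027) and the mitochondrial tRNA gene mt-Tp (0.028). For Kit they were Rbl1 (0.0074), of the retinoblastoma family, and Phax (0.0077), and for Cd27 Rab3gap2 (0.016) and Fbxo42 (0.017). For the members that did not pass, they were Ptpn11 (0.016) and Dynlt3 (0.017) for Cd34, Gm7666 (0.013) and Efr3a (0.014) for Cd48, and Sap30l (0.03) and D3Ertd254e (0.031) for Procr. Distances are not comparable between members, whose own root mean square about the mean ran from 0.038 for Cd48 to 0.47 for Slamf1.

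The nearest tested genes on each side moved in either direction. Beside Kit, Chic2 was lower (log2 fold change -0.33) and Gm19590 higher (0.45), and beside Procr, Edem2 was higher (0.39) and BC029722 lower (-0.24). Plxna2, a semaphorin receptor gene before Cd34, was lower (-1.06), and Tnfrsf1a, a receptor gene of the tumour necrosis factor family before Cd9, was higher (0.23). Tapbpl and Ltbr beside Cd27, Gm47963 and Vsig2 beside Esam, and Tma7-ps between Cd48 and Slamf1 did not pass the test.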

How the data were processed

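Poly-A RNA of sorted cells was sequenced as stranded paired-end libraries, per the labels' protocols. Tools named without roles, per the submitters' processing notes, are CASAVA 1.8, HISAT2, StringTie and edgeR, with build GRCm38. The deposited table gives raw counts and FPKM per gene, per the file headers. In the deposited FPKM the length equalled, within 1%, the summed GENCODE M21 exon records for 89.3% of 10704 genes, so overlapping exons of several transcripts count repeatedly (2.86-fold for Ly6a). Levels per kb therefore used merged exons. The median squared difference between replicates was 1.69 to 1.90 times that of sampling noise alone, and none was counted as a duplicate.

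Counts were tested with edgeR 4.0.16 (R 4.3.3): filterByExpr, which left 15533 genes, TMM, and the quasi-likelihood F-test without covariate, with Benjamini-Hochberg adjustment over all tested genes. On simulated counts for carnosine against saline (15533 genes), 81 of 100 genes changed 2-fold and 17 of 100 changed 1.3-fold were recovered, and 9 of 107 calls were unchanged genes. No other genes were changed there, while 39.4% of genes passed in the data. The adjustment was therefore stricter in the simulation, and its recovery rates do not carry over directly. Alternatives included DESeq2 1.42.0 and limma 3.58.1. The members, 16 lists of related genes and markers, and all tests were chosen with earlier results of these data known. Beyond the members, up to 4 called genes per related list were named by smallest p, with the nearest tested genes on each side and the 2 closest profiles; genes named from the marker lists were chosen after their values were seen. A few listed genes are not reported here by name. Same-numbered libraries were not paired: correlations of their deviations were 0.0079 to 0.027.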

Additional observations from a re-analysis of the deposited data

How the results depend on the processing

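The 5 member calls held in each of the 14 alternatives: other scaling, filters, tests, values, the replicate block and each library left out. The total of called members was 5 or 6. Cd34 joined with at least 5 CPM in 3 libraries, limma-voom, the replicate block (adjusted p = 0.048) and without saline replicate 3, and Cd48 on the FPKM scale. With the replicate number as a block, 5231 genes passed in place of 6115, and Cd34 was the 1 member whose call changed. Every library correlated best with its own number in the other group, a hint from the data and not the design. Left-out libraries gave 5082 to 5317 genes. The sign of Ly6a turned without saline replicate 1 (0.19), carnosine replicate 1 (0.088) and carnosine replicate 2 (0.032), and the cause was not tested. Its lowest value was -0.33, without carnosine replicate 3. With limma-trend on log2(FPKM + 1), which understates low genes, 3387 genes were higher and 2156 lower, against 3038 and 3077, and log2 fold changes were shifted by a median of 0.053. Precision is limited by depth for Esam and Procr, with 52 to 120 counts per library, and by 3 libraries a group.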
